A study of Mus musculus with 9 samples.

Results

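The core circadian clock of the liver was described through 10 genes: Arntl, Clock and Npas2, Per1, Per2 and Per3, Cry1 and Cry2, and Nr1d1 and Nr1d2. They were chosen by name for their place in the clock loop, with earlier results of these data known. All 10 genes were found among the 32285 genes of the normalized count table. Of these 10 genes, 9 reached the mean of 10 normalized counts that was required for a test, as did 12100 genes in all, and Npas2 did not.

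The liver clock is a loop of transcription. ARNTL (also called BMAL1) pairs with CLOCK or NPAS2 and activates the Per, Cry and Nr1d genes, the PER and CRY proteins then inhibit that pair, and the REV-ERB proteins made from Nr1d1 and Nr1d2 repress Arntl, Npas2 and Clock. The activator genes are therefore low at the time of day when the Nr1d and Per genes are high, and in mouse liver the transcripts of Nr1d1, Dbp, Per3, Per1 and Per2 peak in turn over the later part of the light phase and the start of the dark phase. Feeding, glucocorticoid and body temperature reset the clock of the liver, and Per1 and Per2 also respond to them directly.

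RNA was sequenced from livers of male Tet-OFF mice, which were 4 weeks old at the start of treatment, in a control group, a Dox group and a Tc group of 3 libraries each. By the study's description, Tet-OFF mice carried PB CAG-CreERT2, in which the broadly active CAG promoter drives a tamoxifen-dependent Cre, together with an LSL-tTA allele (kept off by a stop cassette that Cre removes) and, at Rosa26, tetO-Venus-ires-mCherry, and came from embryonic stem cells of a C57BL/6 and 129/sv cross. Mice of all 3 groups had received tamoxifen, and those of the Dox and Tc groups then drank doxycycline hyclate or tetracycline hydrochloride at 2 mg/mL, in water with sucrose, for 7 days, and whether the water of the controls held sucrose is not given in the sources used here. Either drug also stops tTA from driving Venus and mCherry, so that an effect of the drug and an effect of silencing the transgene cannot be told apart, and no group without tamoxifen was analysed here. The mice were kept in a light and dark cycle with free access to food. The time of day at which each liver was taken is not given in the sources used here, so a difference in the hour of collection and an effect of a drug on the clock cannot be told apart for any gene below.

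Recovered reads on genes ranged from 7426136 to 12183041 per library. In each group, library 3 was fitted as a mixture of libraries 1 and 2, at weights of 58.4% and 41.7% in controls, 61.3% and 34.5% with Dox, and 61.2% and 36.9% with Tc. How closely it fitted was not measured. Where libraries 1 and 2 differed over 2-fold at a mean of at least 50, the value of library 3 fell between theirs for 211 of 215 control genes, 2972 of 2987 genes with Dox and 470 of 473 with Tc. Among the 10 members, at any difference, it fell between for 7 in controls, 9 with Dox and 3 with Tc. The fits of all 9 libraries count the 3 libraries of a group as independent, so their p-values are too small, and calls of the members and lists are also given without libraries 3. Libraries 1 and 2 of the Dox group stood far apart: 4264 of the 12100 tested genes differed over 2-fold between them, against 586 in controls and 1022 with Tc. Hepatocyte markers (5 of 6 analysed, none at 0) summed to 1178800 to 1666140 normalized counts in controls, 366473 to 933855 with Dox and 923441 to 1379100 with Tc.

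Short stretches of the promoters are shown first, because the members are tied to each other through E-boxes, on which ARNTL and CLOCK act, and D-boxes, on which DBP, TEF, HLF and NFIL3 act. Promoter sequence from RefSeq (GRCm38.p6) was found for 9 of the 10 genes, all but Per2, and the 250 bases before each start were searched on both strands for the E-box CACGTG, the E'-box CACGTT, the D-boxes TTATGTAA and TTACGTAA, and the RORE bound by REV-ERB and ROR proteins. Capitals mark the matched letters in the stretches that follow, read 5′ to 3′ on the strand of the gene, and none of them touched an annotated exon, although that of Per1 lies inside the annotated span of its gene, after an earlier start.
Per1, chr11:69098768-69098803, plus strand, E-box: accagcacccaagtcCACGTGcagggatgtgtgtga
Per3, chr4:151044801-151044885, minus strand, D-boxes: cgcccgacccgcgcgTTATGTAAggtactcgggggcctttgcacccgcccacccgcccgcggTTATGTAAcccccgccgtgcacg
Cry1, chr10:85185094-85185148, minus strand, E'-box in reverse and E-box: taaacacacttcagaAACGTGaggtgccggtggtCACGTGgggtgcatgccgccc
Cry2, chr2:92434215-92434250, minus strand, E'-box in reverse: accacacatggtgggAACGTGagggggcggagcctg
Nr1d1, chr11:98775385-98775420, minus strand, E'-box in reverse: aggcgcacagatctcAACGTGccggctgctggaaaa

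Per3 was the member with 2 copies of the D-box TTATGTAA, at 205 and 158 bases before its start, and Cry1 held an E-box at 60 and an E'-box at 79 bases before its start, counted to the first letter of each. Among 27025 promoters of the same length, 6.04% held the E-box, 3.93% the E'-box, 0.862% TTATGTAA, 0.0999% TTACGTAA and 0.363% the RORE. These letters were not in the windows of Arntl, Clock, Npas2 and Nr1d2. A match describes the letters and is not evidence that a factor was bound.

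The activator side held the most variable member. Arntl (ENSMUSG00000055116, chromosome 7, 113207465 to 113314126 in GRCm38), the gene of BMAL1, had 37.0, 62.8 and 59.8 normalized counts in control libraries 1, 2 and 3, then 8.4, 349.7 and 117.9 with Dox, and 8.8, 12.6 and 5.9 with Tc. Dox library 2 held the highest value of the series and Dox library 1 lay among the Tc libraries, a ratio of 41.5 between the pair, so that the Dox group overlapped both other groups, while all 3 Tc libraries lay below all 3 control libraries. Its log2 fold change was 0.47 with Dox (standard error 1.09, limma adjusted p = 0.801) and -2.44 with Tc (95% interval -4.94 to 0.05, limma adjusted p = 0.441). Neither passed in this fit. The change with Tc did pass in limma on Tc and control alone (95% interval -3.22 to -1.67, adjusted p = 0.00951), where the Dox libraries do not enter the estimate of spread. It also passed in limma with array weights (adjusted p = 0.0012), at a standard error of 0.41 against 1.09 without weights. The share of all genes that pass in either of these fits is not given here. The change with Tc did not pass in DESeq2 (adjusted p = 0.133), nor without libraries 3 in either tool. Between Dox and Tc the difference of 2.91 did not pass in limma (adjusted p = 0.186) but did in DESeq2 on the recovered reads (4.13, adjusted p = 4.69e-04). Without Dox library 2 the limma change with Dox was -0.66 (adjusted p = 0.630), and without Dox library 1 it was 1.95 (adjusted p = 0.0274), so these values rested on which Dox liver was counted. An antisense gene, Gm45355, shares 33 exon bases with Arntl and was listed at 0 in every library.

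Clock (ENSMUSG00000029238, chromosome 5, 76209868 to 76304792), the partner of BMAL1, varied far less. It had 636.2, 606.0 and 631.9 normalized counts in controls, 524.4, 595.9 and 529.6 with Dox, and 364.2, 453.2 and 379.0 with Tc. The 3 groups did not overlap, in the order control, Dox, Tc. The log2 fold change with Tc was -0.65 (standard error 0.12), which missed the adjusted threshold in limma (adjusted p = 0.0958) and passed it in DESeq2 (adjusted p = 8.95e-04) without reaching a 2-fold change. With Dox it was -0.19 (95% interval -0.47 to 0.09, limma adjusted p = 0.344).

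Npas2 (ENSMUSG00000026077, chromosome 1, 39193731 to 39363236), which can take the place of CLOCK, was near the limit of detection. It had 1.1, 5.3 and 3.8 normalized counts in controls, 3.2, 13.8 and 8.8 with Dox, and 1.0, 1.8 and 0.0 with Tc. A count of 0 in Tc library 3 allows up to 3 reads, or 2.53 normalized counts, and that limit covers counting error alone. The highest value was again that of Dox library 2, and all Dox libraries lay above all Tc libraries, a difference that DESeq2 did not call (adjusted p = 0.0668).

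**Figure D1:**
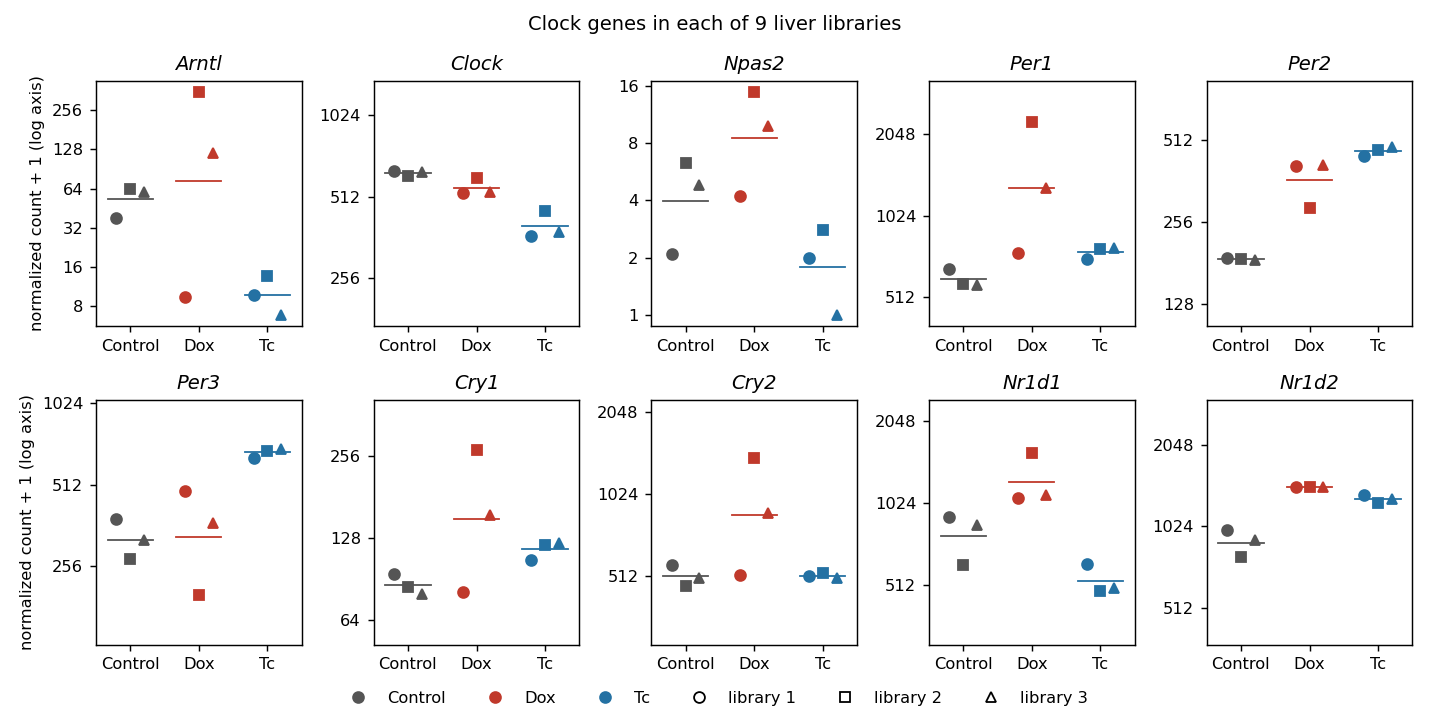
Normalized count + 1 (log axis, a different range in each panel) of the 10 clock genes in each of the 9 libraries, with the mean of log values per group as a line and the symbol giving the library number. In the Dox group, library 2 is highest for Arntl, Npas2, Per1, Cry1, Cry2 and Nr1d1 and lowest for Per2 and Per3, while the Tc libraries lie close together for most genes.

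Of the repressor side, the Per genes encode the proteins that, with CRY, inhibit BMAL1 and CLOCK. Per2 (ENSMUSG00000055866, chromosome 1, 91415982 to 91459324) was the member with the smallest relative spread among the controls. It had 188.4, 185.8 and 184.3 normalized counts in controls, 411.7, 287.6 and 414.4 with Dox, and 446.3, 471.2 and 484.3 with Tc. Every Dox library lay above every control and every Tc library above every Dox library. Per2 rose 2.5-fold with Tc in the fit of all 9 libraries (log2 fold change 1.32, standard error 0.15, limma adjusted p = 0.0316), but the call was lost with the replicate number as a block (adjusted p = 0.0961) and without libraries 3 (unadjusted p = 0.00281, adjusted p = 1.0 in limma and 0.241 in DESeq2, with 2 libraries per group). It was lost as well on leaving out any 1 library other than Dox library 1 or 2, with adjusted p from 0.0679 to 0.238. With Dox the log2 fold change was 0.97 (standard error 0.15, limma adjusted p = 0.0131), past the adjusted threshold and short of 2-fold, and without Dox library 2 it was 1.15 (adjusted p = 0.00104).

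Per3 (ENSMUSG00000028957, chromosome 4, 151003652 to 151044665), the gene with the pair of D-boxes, had 381.1, 271.6 and 317.8 normalized counts in controls, 482.3, 199.0 and 367.7 with Dox, and 641.6, 682.5 and 694.0 with Tc. All Tc libraries lay above all others, while the Dox libraries spanned the control range with library 1 above it and library 2 below it. The log2 fold change with Tc was 1.07 (standard error 0.29), which did not pass in limma (adjusted p = 0.234) and did in DESeq2 (2.08-fold, adjusted p = 0.0351). It also passed in limma without Dox library 2 (adjusted p = 0.00763), a library that enters that comparison only through the common estimate of spread. With Dox it was 0.03 (95% interval -0.63 to 0.70), and between Dox and Tc it was -1.03 (limma adjusted p = 0.133, DESeq2 adjusted p = 0.0386 with a change short of 2-fold in that fit).

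Per1 (ENSMUSG00000020893, chromosome 11, 69095217 to 69109960), which is also induced directly by glucocorticoid and cAMP signals, had 647.8, 573.3 and 567.0 normalized counts in controls, 743.4, 2267.2 and 1288.9 with Dox, and 709.9, 772.5 and 778.2 with Tc. Dox library 2 had 3.05 times the value of Dox library 1, the opposite order to Per2 and Per3, and neither drug group overlapped the controls. With Dox the log2 fold change was 1.12 (standard error 0.33, limma adjusted p = 0.0700), called in DESeq2 (2.40-fold, adjusted p = 0.00582) and in limma without Dox library 1 (1.52, adjusted p = 0.00786). Without Dox library 2 it was 0.72 (limma adjusted p = 0.0385), and with Tc it was 0.34 (adjusted p = 0.764).

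The Cry genes encode the stronger inhibitors of the activator pair. Cry1 (ENSMUSG00000020038, chromosome 10, 85131700 to 85185064) had 93.2, 83.2 and 78.8 normalized counts in controls, 80.0, 268.0 and 154.8 with Dox, and 105.5, 119.6 and 121.3 with Tc. Cry2 (ENSMUSG00000068742, chromosome 2, 92403646 to 92434043) had 560.0, 468.0 and 500.9 in controls, 516.0, 1388.4 and 868.3 with Dox, and 507.8, 523.4 and 502.8 with Tc. For both genes Dox library 1 lay within the control range and Dox library 2 far above it, by 3.35 and 2.69 times the value of library 1. The log2 fold changes with Dox were 0.81 (limma adjusted p = 0.182) and 0.75 (limma adjusted p = 0.144), and both passed without Dox library 1 (adjusted p = 0.0131 and 0.0122). With Tc, Cry1 lay above the controls in all 3 libraries with a log2 fold change of 0.44 (limma adjusted p = 0.719), and for Cry2 it was 0.01 (95% interval -0.68 to 0.69).

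Nr1d1 (ENSMUSG00000020889, chromosome 11, 98767932 to 98775333), the gene of REV-ERB alpha, had the lowest p of the members between the drugs. It had 907.2, 602.5 and 846.7 normalized counts in controls, 1069.8, 1567.9 and 1090.1 with Dox, and 610.3, 482.0 and 496.1 with Tc. All Dox libraries lay above all controls and all Tc libraries, and Tc library 1 alone lay above control library 2, the lowest control. The log2 difference between Dox and Tc was 1.21 (standard error 0.21), which missed the threshold in limma (adjusted p = 0.0705) and passed it in DESeq2 (2.35-fold, adjusted p = 6.95e-05) and in limma without Dox library 2 (adjusted p = 0.0278) or without Dox library 1 (adjusted p = 0.0165). Against controls it was 0.66 with Dox (limma adjusted p = 0.0851) and -0.55 with Tc (limma adjusted p = 0.381). Nr1d1 shares 263 exon bases (8.55% of its exon length) with Thra on the other strand, which had a mean of 141.4 normalized counts, and since the sources used here do not give the strand setting of the counting, some reads of either gene may have been lost or mixed.

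Nr1d2 (ENSMUSG00000021775, chromosome 14, 18204054 to 18239127), the gene of REV-ERB beta, varied little within the Dox and Tc groups. It had 988.7, 787.4 and 907.8 normalized counts in controls, 1424.7, 1432.1 and 1427.0 with Dox, and 1332.0, 1247.3 and 1286.9 with Tc. No groups overlapped, and the Dox libraries, which disagreed on most other members, were nearly level here. The log2 fold change was 0.68 with Dox (standard error 0.12, limma adjusted p = 0.0158), past the adjusted threshold and short of 2-fold, and 0.53 with Tc (limma adjusted p = 0.161, DESeq2 adjusted p = 0.00262).

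Counted over the list, limma with all 9 libraries called 0 of the 9 tested members with Dox, where 5% of all tested genes were called, 1 (Per2, higher) with Tc, where 0.165% were, and 0 between Dox and Tc, where 0.215% were. At an unadjusted p under 0.05 the counts were 5, 5 and 6 of 9 members, against 29.1%, 11.7% and 21.7% of all genes. DESeq2 called 1 (Per1), 2 (Per2 and Per3) and 2 (Arntl and Nr1d1) of the 10 members, against 8.71%, 1.28% and 4.53% of genes, and edgeR called 0, 1 and 0, against 5.52%, 0.174% and 0%. By the adjusted p alone, limma found 2 (Per2 and Nr1d2), 1 (Per2) and 0 members, against 8.41%, 0.182% and 0.231% of genes, and DESeq2 found 4 in each comparison, against 15.6%, 2.17% and 7.34%. Without libraries 3, limma called 0 members and 0% of genes in each comparison, DESeq2 called 0 members against 0.874%, 0.0291% and 0.266% of genes, and limma found 2, 2 and 1 members at an unadjusted p under 0.05, against 8.6%, 1.98% and 3.75% of genes. Limma counts moved with the Dox library that was left out: without library 1 they were 4, 1 and 5 members, against 12.4%, 0.38% and 11.3% of genes, and without library 2 they were 1, 2 and 1, against 9.11%, 1.83% and 1.48%. The comparisons of Dox and of Tc with control share the 3 control libraries and are not independent of each other.

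**Figure D2:**
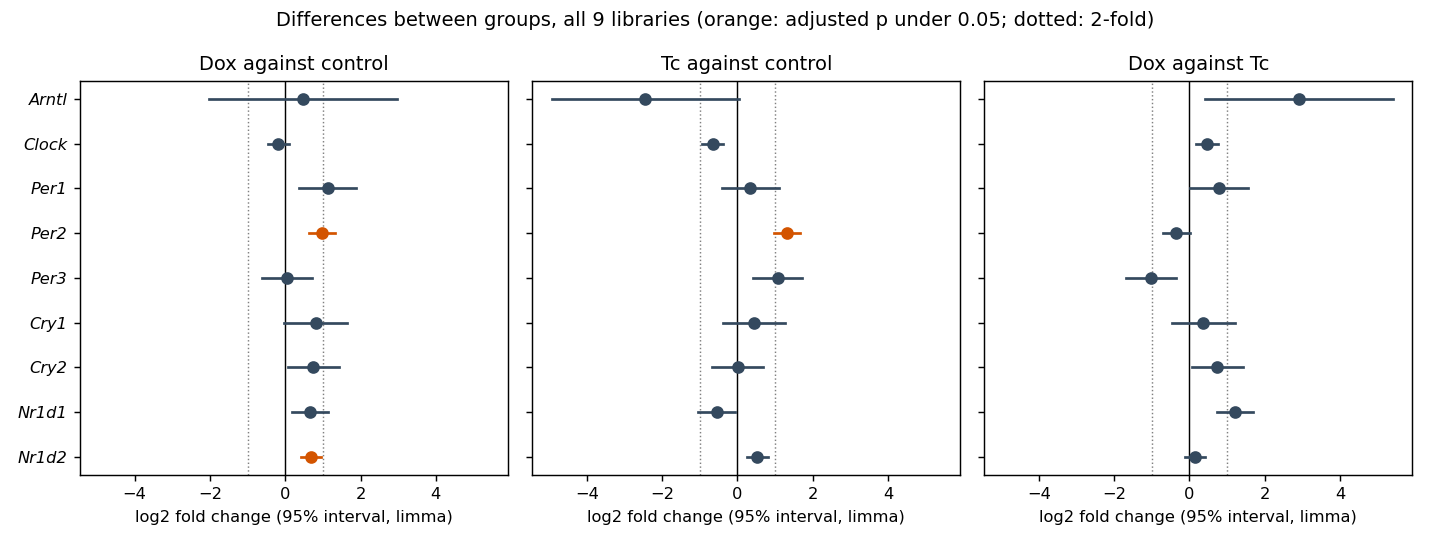
Log2 fold change with its 95% interval (limma, all 9 libraries) of the 9 tested clock genes in the 3 comparisons, with orange marking an adjusted p under 0.05 and dotted lines a 2-fold change. Orange points are Per2 and Nr1d2 with Dox and Per2 with Tc, and the interval of Arntl is the widest in every comparison.

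Ranges that did not overlap were common among all genes. With Dox, 5 of the 9 members did not overlap the controls (Per1, Per2, Nr1d1 and Nr1d2 above, Clock below), against 33.3% of all tested genes. With Tc, 7 of 9 did not (Per1, Per2, Per3, Cry1 and Nr1d2 above, Arntl and Clock below), against 30.7%, and between Dox and Tc 5 of 9 did not (Clock, Nr1d1 and Nr1d2 higher with Dox, Per2 and Per3 lower), against 24.6%. The median log2 fold change of the tested members was 0.68 with Dox, 0.34 with Tc and 0.47 between Dox and Tc, and over all tested genes it was 0.00, 0.00 and -0.02.

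Read per kilobase of exon, the order of the members in controls was Nr1d1 (median 275 normalized counts per kilobase), Nr1d2 (168), Per1 (102), Cry2 (79.3), Clock (46.0), Per3 (33.1), Per2 (31.7), Cry1 (24.9), Arntl (7.94) and Npas2 (0.796). Control ranges of the neighbours Per3 and Per2 overlapped (28.3 to 39.7 and 31.5 to 32.2 per kilobase), and those of every other pair of neighbours did not. With Tc the order on the same scale was Nr1d2 (median 238), Nr1d1 (161), Per1 (137), Per2 (80.5), Cry2 (80.3), Per3 (71.0), Cry1 (35.8), Clock (27.6), Arntl (1.17) and Npas2 (0.204). The REV-ERB pair thus changed places and Per2 and Per3 stood above Clock, while the ranges of Per2 and Cry2, and of Cry1 and Clock, overlapped with Tc.

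Ratios between genes of the repressor side were then taken within each library, where no scaling between libraries enters. No activator gene is part of them, so they do not read one side against the other. The ratio of Nr1d1 to Per2 was 4.81, 3.24 and 4.59 in control libraries 1, 2 and 3, 2.6, 5.45 and 2.63 with Dox, and 1.37, 1.02 and 1.02 with Tc. The ratio of Nr1d1 to Per3 was 2.38, 2.22 and 2.66 in controls, 2.22, 7.88 and 2.96 with Dox, and 0.951, 0.706 and 0.715 with Tc. By both ratios the Tc libraries lay below every other library, and Dox library 2 lay above every other.

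As a summary of both sides, the mean log2(normalized count + 1) of Arntl, Clock and Npas2 minus that of Per1, Per2, Per3, Nr1d1 and Nr1d2 was computed in each library, and is called the limb difference. It was -3.85, -2.77 and -3.08 in controls, -4.76, -2.43 and -3.21 with Dox, and -5.19, -4.73 and -5.67 with Tc. The Tc libraries had lower activator means (3.79 to 4.69) than the controls (5.20 to 5.97) and higher repressor means (9.42 to 9.45 against 8.73 to 9.05), Dox library 1 lay at the edge of the Tc range, and Dox library 2 lay at the other end, above all controls. Group means were -3.23 ± 0.56 (SD, n = 3) in controls, -3.47 ± 1.19 (SD, n = 3) with Dox and -5.19 ± 0.47 (SD, n = 3) with Tc. The difference from controls of -1.96 with Tc was larger than the pooled SD of 0.805, and that of -0.23 with Dox was smaller. That pooled SD takes in the wide Dox group. Npas2, a part of the activator mean, had only 1, 6 and 3 reads in control libraries 1, 2 and 3, and 1, 2 and 0 with Tc. The score was not computed without Npas2. No test was made of this score, and with library 3 fitted as a mixture of the others, the SDs do not measure the spread of 3 independent livers.

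**Figure D3:**
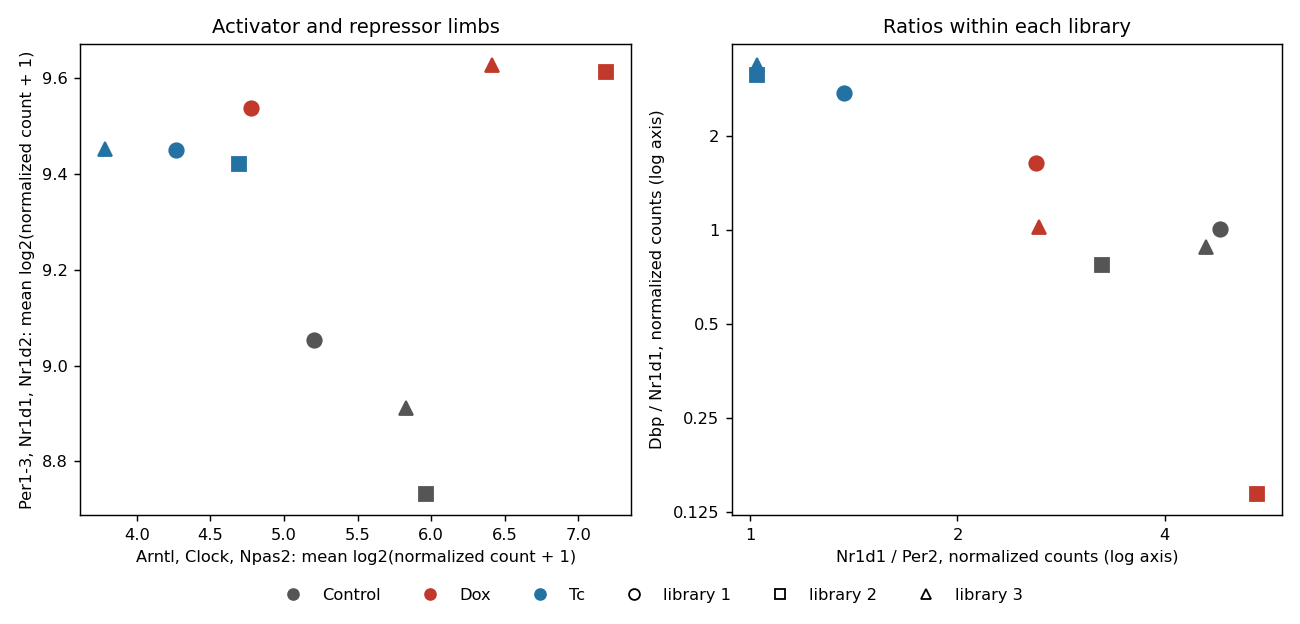
Left, mean log2(normalized count + 1) of the activators Arntl, Clock and Npas2 against that of Per1, Per2, Per3, Nr1d1 and Nr1d2, and right, the ratio of Nr1d1 to Per2 against that of Dbp to Nr1d1 (log axes), with 1 point per library. The Tc libraries lie together at low activators and at ratios of Nr1d1 to Per2 from 1.02 to 1.37, while Dox library 2 lies apart, with high means on both sides and a ratio of Dbp to Nr1d1 of 0.142.

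In the Dox group the activator means were 4.78, 7.19 and 6.41 on the log2 scale in libraries 1, 2 and 3, and the repressor means were nearly level at 9.54, 9.61 and 9.63, all above the controls and Tc. Members of both sides were above every control in Dox library 2, all but Clock and Per3, which were below every control. Against the control mean, Dox library 1 lay within the range of the Tc libraries for 3 members, Arntl (0.158 times, against 0.111 to 0.237 with Tc), Per1 (1.25 against 1.19 to 1.31) and Cry2 (1.01 against 0.987 to 1.03). It lay between the Tc libraries and the controls for Per2 (2.21 against 2.40 to 2.6 times), Per3 (1.49 against 1.98 to 2.15) and Clock (0.839 against 0.583 to 0.726). It lay apart from the Tc libraries for Nr1d1 (1.36 against 0.614 to 0.777), Cry1 (0.941 against 1.24 to 1.43), Npas2 (0.931 against 0.0 to 0.53) and Nr1d2 (1.59 against 1.39 to 1.49).

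Outside the core loop, 23 further regulators of the clock were listed, of which 22 were tested. With Dox, limma called 2 higher (Bhlhe40 and Ciart) and 0 lower, where 5% of all genes were called, and the median log2 fold change was 0.26 against 0.00 over all genes. With Tc and between Dox and Tc it called 0, at medians of 0.10 and 0.22, while DESeq2 called 3 with Dox (Sirt1 as well, a deacetylase that acts on clock proteins), 0 with Tc and 1 (Bhlhe40) between the drugs, where 8.71%, 1.28% and 4.53% of all genes were called. Without libraries 3 neither tool called any of them.

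The PAR bZIP factors, which act on the D-box, and their competitor Nfil3 are direct outputs of the loop. Dbp, a target of BMAL1 and CLOCK with a very wide daily swing, had 911.4, 466.2 and 743.8 normalized counts in controls, 1745.8, 223.2 and 1113.8 with Dox, and 1673.7, 1511.7 and 1669.3 with Tc. Dox library 1 was as high as the Tc libraries and Dox library 2 was the lowest of all, a split like that of Per3 and opposite to that of Arntl. Its ratio to Nr1d1 was 0.774 to 1.0 in controls, 1.63, 0.142 and 1.02 in Dox libraries 1, 2 and 3, and 2.74 to 3.37 with Tc. Its log2 fold change was 0.15 with Dox (limma adjusted p = 0.895) and 1.25 with Tc (limma adjusted p = 0.518), and without Dox library 2 it was called with either drug (1.03 and 1.25, limma adjusted p = 0.0310 and 0.0259).

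Tef had 1571.9, 1030.7 and 1290.4 normalized counts in controls, 2468.2, 1946.3 and 2189.8 with Dox, and 2371.9, 2283.2 and 2303.5 with Tc. Both drug groups lay wholly above the controls, and the log2 fold changes were 0.78 (limma adjusted p = 0.0316, short of 2-fold) and 0.86 (limma adjusted p = 0.117, DESeq2 adjusted p = 0.00156). Hlf had 624.2 to 644.6 in controls, 894.0, 210.5 and 607.1 with Dox, and 628.6 to 793.9 with Tc, and again Dox library 2 was the lowest. Nfil3, which represses from the same sites, had 146.2 to 244.2 in controls, 110.6, 333.6 and 171.6 with Dox, and 126.9 to 165.5 with Tc, the reverse order within the Dox group. Neither Hlf nor Nfil3 passed a test in any comparison with limma or DESeq2.

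Among factors that bind the sites of the core proteins, the E-box repressor Bhlhe40 (DEC1) had 871.2, 1153.6 and 1118.8 normalized counts in controls, 4029.8, 1548.3 and 2911.2 with Dox, and 1032.6 to 1076.1 with Tc. It rose 2.53-fold with Dox (log2 fold change 1.34, standard error 0.31, limma adjusted p = 0.0350), with Dox library 1 the highest. Ciart, a repressor that joins the PER and CRY arm, had 91.1 to 122.8 in controls, 238.0, 202.5 and 219.9 with Dox, and 113.3 to 189.4 with Tc, and rose 2.14-fold with Dox (log2 fold change 1.10, standard error 0.21, limma adjusted p = 0.0198). Bhlhe41 (DEC2) spread from 24.2 to 328.5 within the Dox group and passed in no comparison over all 9 libraries. Rora, an activator that competes with REV-ERB at the RORE, had 967.9 to 1027.8 in controls, 1407.8, 2467.4 and 1722.6 with Dox, and 1046.0 to 1223.0 with Tc (log2 fold change with Dox 0.85, limma adjusted p = 0.0350, short of 2-fold).

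**Figure D4:**
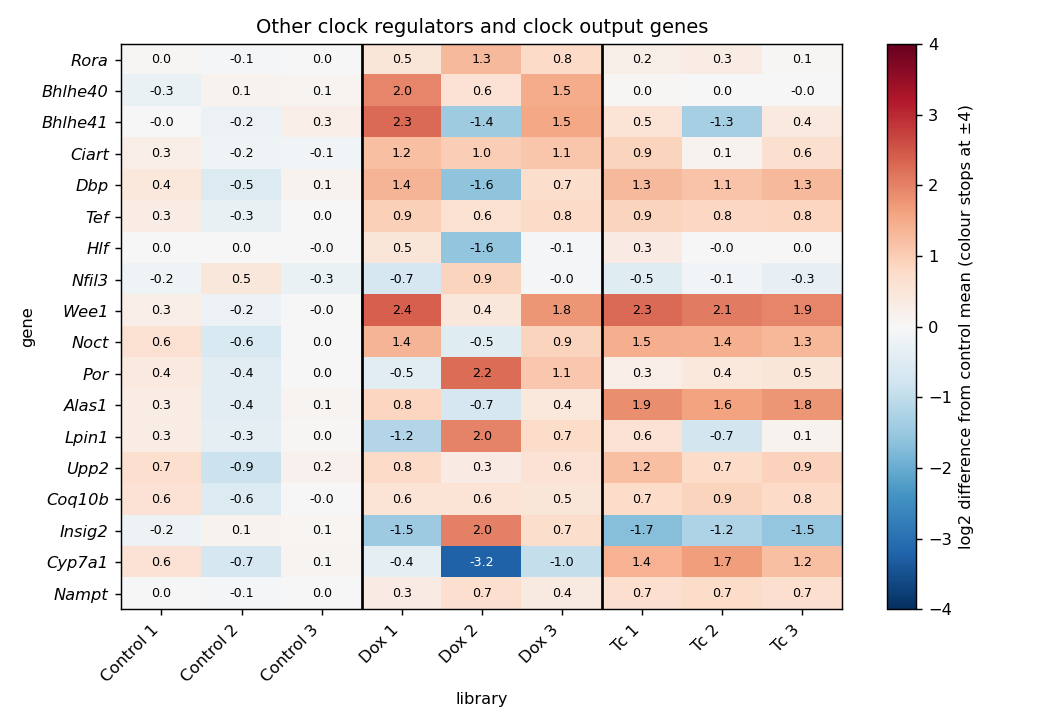
Difference in log2(normalized count + 1) from the control mean, in each of the 9 libraries, for 8 other clock regulators and 10 clock output genes. Dbp, Hlf and Bhlhe41 are below the control mean in Dox library 2 and above it in Dox library 1, and Wee1 is above it in every Dox and Tc library.

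Of 10 genes of liver metabolism and cell cycle known to follow the clock, limma called 0 in each comparison (5%, 0.165% and 0.215% of all genes), and DESeq2 called 1 with Dox, 2 with Tc and 3 between the drugs (8.71%, 1.28% and 4.53% of all genes). Without libraries 3 both tools called 0 in each. Wee1, a cell cycle kinase and E-box target, had 42.5 to 61.4 normalized counts in controls, 271.7, 69.0 and 175.1 with Dox, and 249.0, 215.8 and 197.9 with Tc. All drug-treated libraries lay above all controls, and the log2 fold change was 1.54 with Dox (limma adjusted p = 0.0593, DESeq2 adjusted p = 0.00169) and 2.10 with Tc (limma adjusted p = 0.128, DESeq2 adjusted p = 4.18e-04). Alas1, the rate-limiting enzyme of haem synthesis, had 2863.7 to 4639.5 in controls, 6826.5, 2357.0 and 5137.9 with Dox, and 11599.6 to 13893.8 with Tc (log2 fold change with Tc 1.75, limma adjusted p = 0.138, DESeq2 adjusted p = 5.53e-04).

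Cyp7a1, the rate-limiting enzyme of bile acid synthesis, had 786.5 to 1850.3 normalized counts in controls, 945.6, 131.1 and 640.5 with Dox, and 2877.9 to 3965.7 with Tc. The groups Dox and Tc did not overlap (log2 difference -2.96, limma adjusted p = 0.0957, DESeq2 adjusted p = 7.48e-04). Insig2, which restrains sterol synthesis and is a REV-ERB alpha target, had 1690.5 to 2121.5 in controls, 706.6, 7865.8 and 3133.8 with Dox, and 602.5 to 830.9 with Tc, so that Dox library 1 lay with the Tc libraries, as it did for Arntl.

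Genes that answer to the cues which reset the liver clock were listed to show what else moved with Dox library 2. Of 5 glucocorticoid-responsive genes, Tat was 11.5, Zbtb16 22.5 and Sgk1 11.6 times higher in Dox library 2 than in Dox library 1. Tsc22d3 went the other way, with 1015.1 normalized counts in Dox library 1 and 723.5 in library 2, the lowest of the series. Tat, which breaks down tyrosine, had 159364 normalized counts in Dox library 2 and 13817.2 in library 1. Fkbp5, another target of the receptor, had 1505.7 to 2062.0 in controls, 220.1 in Dox library 1 and 2230.4 in Dox library 2, the lowest and the highest value of the series. DESeq2 called Sgk1, Tat and Zbtb16 higher with Dox than control and Sgk1 and Zbtb16 higher with Dox than Tc, against 8.71% and 4.53% of all genes, and limma called 0 of the 5 (5% and 0.215% of genes). Without libraries 3 neither tool called any of the 5. Without Dox library 2 limma called Fkbp5 lower with Dox and none of the others, where 9.11% of all genes were called.

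Of 8 genes that follow feeding, fasting and insulin, Igfbp1 had 61.1 normalized counts in Dox library 1 and 82200.5 in library 2, against 356.5 to 845.8 in controls. Pdk4 was 133, Irs2 32.6 and Ppargc1a 13.5 times higher in Dox library 2 than in library 1. G6pc, the last enzyme of glucose release, rose 2.01-fold with Dox (limma adjusted p = 0.0150) and was as high in Dox library 1 (7264.5) as in library 2 (6620.0). Of the 8, limma called G6pc alone with Dox, where 5% of all genes were called. DESeq2 called Igfbp1, Irs2, Pdk4 and Ppargc1a as well, where 8.71% of all genes were called. Without libraries 3 neither tool called any of the 8. Without Dox library 2 limma called G6pc and Srebf1 with Dox, where 9.11% of all genes were called. Of 6 temperature-responsive genes, 5 tested, limma called 0 in each comparison (5%, 0.165% and 0.215% of all genes). DESeq2 called Cirbp, a cold-induced RNA-binding protein, between the drugs, where 4.53% of all genes were called. Cirbp had 84.2 in Dox library 1, 709.7 in library 2 and 72.8 to 89.3 with Tc, and without libraries 3 neither tool called any gene of that list. The part of these cues in the values of Arntl, Per1, Cry1, Cry2 and the other members was not tested.

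**Figure D5:**
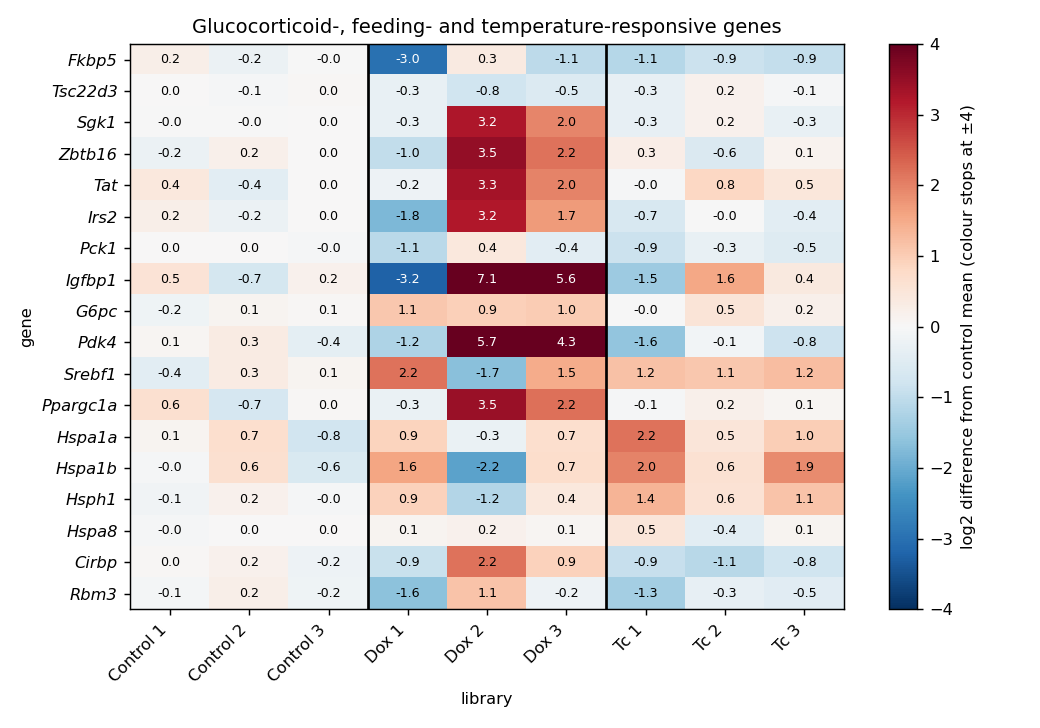
Difference in log2(normalized count + 1) from the control mean, in each of the 9 libraries, for genes that respond to glucocorticoid, feeding and temperature, of which 1 gene of the feeding list is not shown. Sgk1, Zbtb16, Tat, Irs2, Igfbp1, Pdk4 and Ppargc1a are far above the control mean in Dox libraries 2 and 3 and below it in Dox library 1.

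Markers of other liver cells moved with the groups too. The 4 Kupffer cell markers summed to 5507.5 to 8999.1 normalized counts in controls, 1518.4 to 3616.5 with Dox and 2596.5 to 5214.8 with Tc. Of the 4, 2 (Adgre1 and Clec4f) fell with Dox in limma, where 5% of all genes were called. The 4 endothelial markers summed to 3687.4 to 3801.4, 1758.5 to 2116.6 and 2740.1 to 3256.2, and 1 (Stab2) fell with Dox. No marker of either list was at 0 in any library. Of the 4 markers each of stellate cells, neutrophils, erythroid cells, lymphocytes and cholangiocytes, limma called the erythroid Slc4a1 lower and the cholangiocyte gene Sox9 higher with Dox. With Tc it called 0 markers of any list, where 0.165% of all genes were called. Without libraries 3 limma called 0% of genes in each comparison, and so none of these markers. In whole liver, fewer cells of a type and less RNA per cell cannot be told apart, and the part of cell makeup in the clock values was not tested.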

How the data were processed

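Liver RNA was measured in 9 libraries (3 control, 3 Dox, 3 Tc), grouped by the sample labels. The authors trimmed reads with cutadapt, aligned them to mm10 with STAR and GENCODE annotation, counted uniquely mapped reads with HTSeq 2.0.5 and normalized them with DESeq2 1.42.0. The deposited values are a signal: each gene's normalized count, for which the count was divided by 1 size factor per library. All columns were used.

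Log2(normalized count + 1) was fitted in 1 model of all 9 libraries with limma-trend (limma 3.58.1, R 4.3.3) for the 12100 genes whose mean was 10 or more. A call required an adjusted p (Benjamini-Hochberg) under 0.05 and more than a 2-fold change. Fold changes on this scale understate changes of low genes. Whole reads were recovered for 100% of values (tolerance 0.01) and tested with DESeq2 1.42.0 on all genes with reads and edgeR 4.0.16. The fits were tested on simulated data, with independent libraries and the same spread in every group. The real libraries differ in both, so that test does not show how far these p-values hold. The p-values measure only the spread between these samples.

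The members and lists were chosen with earlier results of these data known. Named genes were the 10 members, Rora, Bhlhe40, Bhlhe41, Ciart, Dbp, Tef, Hlf and Nfil3, genes of the lists that limma or DESeq2 called, and for Arntl and Nr1d1 the 3 genes outside the lists with the highest Pearson r. Some items that the rule or lists cover are not reported here. Other genes of the lists were named after their values were seen. Deviations of same-numbered Dox and Tc libraries from their group means correlated (r = 0.29, 0.32 and 0.18), those of control libraries with either did not (-0.08 to 0.06), and the numbers come from the sample labels. Alternatives covered the scaling, pseudocount and filter, the tool, array weights, a replicate block, fits of 2 groups, and each library left out. Positions are those of GENCODE for GRCm38.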

Additional observations from a re-analysis of the deposited data

How the results depend on the processing

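Of the log2 fold changes of single members under the alternatives, 636 kept their direction and side of the threshold, 39 passed it newly, 10 lost it and 17 reversed, and the causes were not tested. Pseudocounts of 0.1 and 8, a minimum mean of 50 and no filter on low values changed no call. Scaling to the same total shifted the median of all genes by 0.17 with Dox and 0.16 between the drugs.

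The number of members called with Dox, 0 over all libraries, was 1 with the same total and with DESeq2, 2 with DESeq2 on 2 groups, 3 with array weights and 2 with no fold limit. With Tc it was 1, and it became 2 with DESeq2, 3 with limma, DESeq2 or the replicate block on 2 groups and with array weights, 0 with the replicate block in all groups, and 0 without libraries 3 in limma and in DESeq2. Between the drugs it was 0, and 2 with DESeq2, DESeq2 on 2 groups and array weights. Leaving out 1 library gave 0 to 4 (4 without Dox library 1) with Dox, 0 to 2 with Tc and 0 to 5 (5 without Dox library 1) between the drugs. The share of all genes called is not given for the same total, array weights, the replicate block or fits of 2 groups. Counts under those settings, here and for the other regulators, therefore cannot be read as more or fewer than among all genes.

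Of the other regulators, 2 were called with Dox, against 1 with limma on 2 groups, 1 with the replicate block and 0 with it on 2 groups, 4 with no fold limit, 0 without libraries 3 with either tool, and 0 to 6 on leaving out 1 library (6 without Dox library 1, 0 without Dox library 3 or control library 2 or 3). With Tc the count of 0 became 1 with limma, DESeq2 or the block on 2 groups and with array weights, and 0 to 1 without 1 library. Between the drugs 0 became 1 with DESeq2 in all or 2 groups, 3 with array weights, and 0 to 3 without 1 library. In all groups, the replicate block changed no call of a member other than that of Per2 with Tc.

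The limb difference without 1 library ranged from -0.76 to 0.41 with Dox, -2.27 to -1.73 with Tc and 1.21 to 2.37 between the drugs, and without Clock and Per1 these were 0.19, turned from -0.23 by less than the pooled SD, -2.40 and 2.59. With Dox libraries 2 and 3 left out, chosen after seeing the data, so that Dox library 1 was taken to vary like the other groups, 2 members were called with Dox and 3 with Tc, 1 regulator was called with Tc and 1 between the drugs, and the limb differences were -1.53 with Dox and 0.43 between the drugs. Arntl then had -2.49 with Dox (adjusted p = 0.0186) and -0.044 between the drugs, Cry1 -0.083 and -0.52, and Per1 -0.018 between the drugs.

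Other reversals, none of them of a called value, were Per3 with Dox at -0.054 without libraries 3 and -0.24 to 0.39 without 1 library, Arntl with Dox at -0.66 to 1.95, Cry1 between the drugs at -0.049 to 0.82, and Cry2 with Tc at -0.0029 with TMM, -0.0057 with edgeR, -0.0069 with array weights and -0.051 to 0.078 without 1 library. Npas2, with at most 13.8 normalized counts, was limited by depth.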

Other observations

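Among 9379 genes with a mean of at least 50 outside the lists, those whose log values followed Arntl most closely over the 9 libraries were Cdkn1a (r = 0.970, and 0.981 over the 6 libraries without libraries 3), an inhibitor of the cell cycle, Tead1 (0.970 and 0.973), a transcription factor of the Hippo pathway, and Chka (0.969 and 0.969), a choline kinase. Cdkn1a had 74.1, 299.9 and 195.8 normalized counts in controls, 12.6, 883.4 and 319.4 with Dox, and 14.6, 21.6 and 23.6 with Tc, so that Dox library 1 again lay with the Tc libraries and Dox library 2 was the highest. The points share the libraries.

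Those that followed Nr1d1 most closely were Aaed1 (r = 0.972 over 9 and 0.979 over 6 libraries), Atf6 (0.966 and 0.961), a sensor of stress in the endoplasmic reticulum, and Lhpp (0.962 and 0.968), a phosphatase. Lhpp had 393.7 to 485.9 normalized counts in controls, 553.9 to 1079.0 with Dox and 212.2 to 332.0 with Tc, 3 ranges that did not overlap. These correlations are descriptions over 9 libraries, chosen as the highest of many.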
